A study of Gallus gallus with 38 samples.

Results

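The cecal mucosa of broilers was described by itself, bird by bird. The arrays whose labels give the cecum as tissue were taken, which were 19 of the 38 arrays of the series, and the other 19 were of the jejunum. The birds were Ross 308 males of 42 days (6 weeks in the labels). All of them were vaccinated chicks of 1 house that ate the same standard commercial diet in phases, they were chosen for even body weight, and none was treated. The mucosa was scraped from the rinsed cecum, and total RNA of each bird was labelled with biotin and put on 1 chicken whole-transcript array. A sample is thus 1 bird, and the SD over samples is the spread between birds together with that of sampling and of the array. P-values below therefore measure the spread between these birds' samples. The pen of each bird and the scan dates were not in the labels used here, so no batch could be looked at.

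The ceca of the chicken are a pair of blind sacs at the end of the small intestine in which microbes ferment undigested feed, and their lining takes up water, sodium and short-chain fatty acids. The epithelium is renewed from crypts, where cells divide, and cells that leave the crypt mature into surface cells with channels and exchangers, or into goblet cells that secrete mucus. Under the epithelium lie lymphocytes, plasma cells, macrophages, fibroblasts, vessels and thin sheets of smooth muscle. A scrape mixes all of these, and in such bulk RNA fewer cells of a type cannot be told apart from less RNA in each of them.

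The values were log2 signals, so that 1 unit is a doubling of the signal. They covered 18308 probe sets, of which 12300 had 1 gene symbol. Array medians lay between 5.65 and 5.74. The array of bird 3 stood apart. Its interquartile range was 2.39, against 2.90 to 3.29 on the other 18 arrays, and its correlation with the median of the other arrays was 0.928, against 0.981 to 0.992. It lay outside the range of the other 18 birds in 58.3% of probe sets, whereas no other bird did so in more than 14.3%. Compared with the median of the others, bird 3 was higher by a median of 0.56 in probe sets with a mean under 4 and fell by 0.50 in those with a mean of at least 8. It held 73.7% of the squared scores of the first principal component, which took 32.3% of the variance, or 17.6% without bird 3. Results are therefore given with and without this bird.

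A mean of at least 5 was reached by 7638 of the 10600 protein-coding symbols. It was reached by 27 of the 28 measured genes of a list for surface epithelium, by 21 of 26 for goblet cells and by 20 of 22 for the crypt base. It was further reached by 37 of 41 fibroblast genes and 24 of 28 smooth muscle genes, but only by 4 of 23 genes of enteric nerve and glia and 4 of 11 of pancreas and fat. A free-text field of the labels names the oxyntic, that is gastric, mucosa, which goes against the tissue label. Genes chosen for this point after the values were seen had means of 8.42 for *CDX1* and 8.31 for *CDX2*, homeobox factors of the intestine. The gastric genes *ATP4B*, a proton pump subunit of acid-secreting cells, and *PGC*, a pepsinogen, averaged 3.21 and 3.95. No bird was above 3.93 for *ATP4B* or above 4.39 for *PGC*, and the other 3 gastric genes looked at had means of 3.42 to 4.38.

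Housekeeping genes shared the top of the signal range with genes of the surface, of plasma cells and of connective tissue. The 30 protein-coding genes with the highest signals had means from 11.05 to 12.60, and only 301 probe sets in all reached 10. Probes bind with different strength, so the order of these signals is no order of transcript abundance. Ferritin heavy chain *FTH1*, which stores iron, had the highest mean, 12.60 ± 0.09 (SD, n = 19), with birds between 12.46 and 12.78. The translation factor *EEF1A1* averaged 12.31 ± 0.12. The SD of *FTH1* was also the smallest of the 30.

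Several of the 30 are genes of the epithelium. *GUCA2B*, which encodes the gut peptide uroguanylin, had a lowest, median and highest bird of 11.02, 11.97 and 12.58. *PLET1*, a surface protein of epithelia, lay between 11.18 and 12.45, and *CBS*, the first enzyme of transsulfuration from homocysteine to cysteine, between 10.88 and 12.40. Bird 3 was the lowest for *GUCA2B* and *PLET1* and bird 5 for *CBS*, while birds 13 and 18 were the highest. The epithelial adhesion molecule *EPCAM* (11.53 ± 0.19), the tetraspanins *TSPAN8* and *TSPAN1*, the keratin *KRT40* and the sulfotransferase *SULT1C3* belonged to the same 30.

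The immune and stromal genes of the top 30 were *JCHAIN*, *CD74*, *B2M*, *COL1A1* and *SPARC*. *JCHAIN*, which joins immunoglobulin A units in plasma cells, averaged 12.03 ± 0.41, with 11.27 in bird 3, a median of 12.17 and 12.63 in bird 10. *COL1A1*, a chain of type I collagen, had the widest spread of the 30 (11.24 ± 0.53), with bird 8 lowest at 10.39 and bird 6 highest at 12.11. *SPARC*, a matrix protein of stromal cells, was highest in the same bird (11.91). All 30 genes were again the top 30 without bird 3, and 26 of them were when genes with several probe sets were given the average of those.

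Among microRNA probe sets, which read precursor transcripts on such an array, the highest means were those of gga-mir-147 (10.20 ± 0.39), *MIR1648* (9.05 ± 0.41) and *MIR1653* (7.65 ± 0.54). *MIR196B*, which lies in a HOX cluster, followed with 7.64 ± 0.29, and *MIR1644* (7.59) and *MIR1557* (7.36) came next. For gga-mir-147 the birds ran from 9.10 to 10.61 around a median of 10.35.

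Most genes varied little between birds. Over the 11254 probe sets with a mean of at least 5 the median SD was 0.30 (0.24 without bird 3), and the median ratio of the highest bird to the lowest was 2.27-fold. An SD of at least 1 was found for 44 probe sets, of which 25 had 1 gene symbol and 17 had none, and for 40 without bird 3. Of the 30 named genes with the largest SD, 29 stayed among the 30 without bird 3. The last of them, *CYP51A1*, had an SD of 0.93, and *TMIGD1*, the first one not included, had 0.91.

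**Figure D1:**
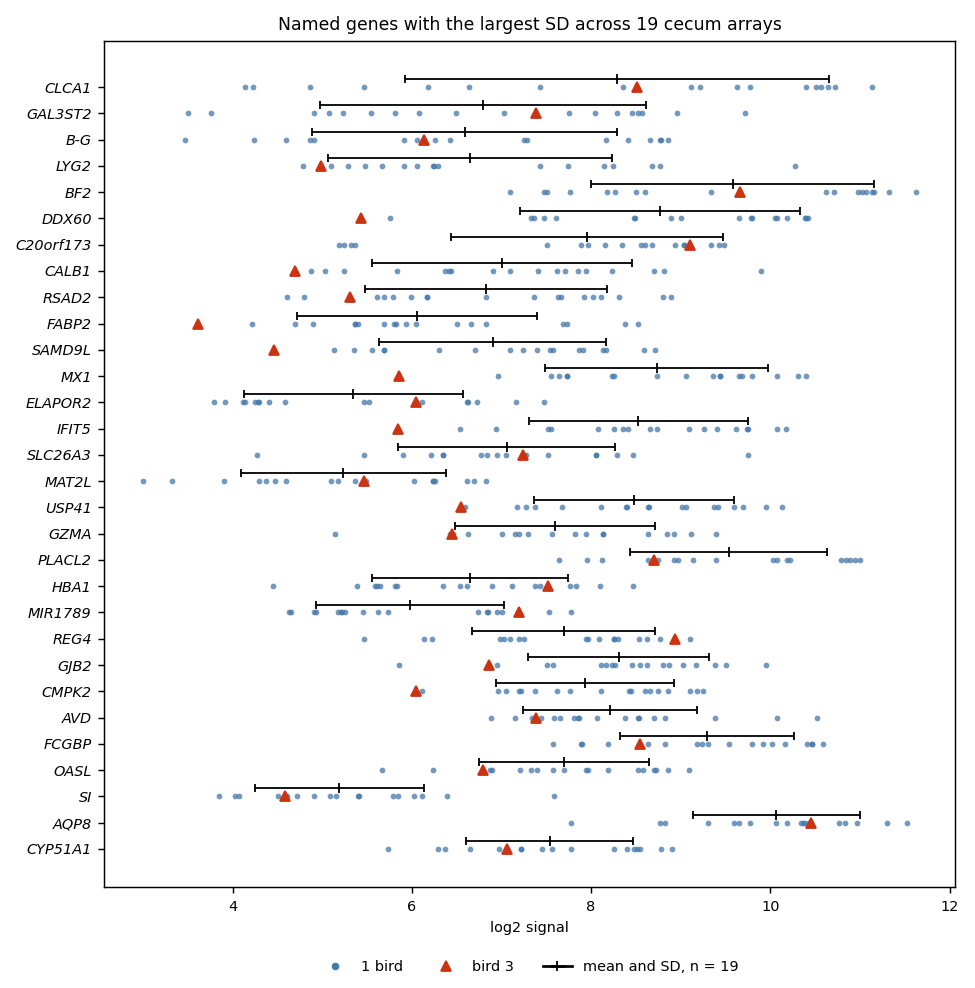
Log2 signal (horizontal axis) of each of 19 birds for the 30 named genes with the largest SD among probe sets with a mean of at least 5, ordered by SD from the top. Dots are birds, the triangle is bird 3, and the bar is the mean with the SD (n = 19). *CLCA1* spans 4.14 to 11.13, and *C20orf173* shows 4 birds at or under 5.36 apart from the others.

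The widest spread belonged to genes of mucus and of glycan sulfation. *CLCA1*, a secreted protease of the mucus layer, had a mean of 8.29 ± 2.37, with 4.14 in bird 6, a median of 9.11 and 11.13 in bird 13. Birds 1, 6 and 8 were under 5, and birds 9, 12, 13, 14, 17 and 19 were over 10. *GAL3ST2*, which adds sulfate to galactose on glycans, ran from 3.5 in bird 6 over a median of 7.03 to 9.72 in bird 14. Birds 6 and 8, both under 5 for *CLCA1*, were the lowest for *GAL3ST2*. Bird 17 came next for *GAL3ST2* at 4.91 but had 10.57 for *CLCA1*. *REG4*, a secreted lectin of the gut epithelium, varied less (7.69 ± 1.02) and in another order, with bird 17 lowest at 5.47 and bird 2 highest at 9.10. The mucin *MUC2* itself had an SD of 0.65 and birds between 8.14 and 10.23, and *AGR2*, a folding helper for mucin, only 0.25.

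For a further set, birds are given on either side of the widest gap in the gene's ordered signals, which any gene has. This gap was 2.15 for *C20orf173*, 0.96 for *BF2*, 1.0 for *B-G* and 1.01 for *MIR1789*. *GAL3ST2* (1.15) and *DDX60* (1.57) had wider gaps than the last 3, though with only 2 birds below them. The cecal ranges of *BF2*, *B-G* and *MIR1789* are thus a description and do not by themselves show separate classes of birds. *C20orf173* had 5.24, 5.36, 5.32 and 5.19 in birds 1, 7, 13 and 14, and between 7.51 and 9.48 in the other 15. *BF2*, the major classical class I histocompatibility molecule of the chicken, was between 7.10 and 9.66 in 10 birds and between 10.62 and 11.63 in 9. *B-G*, a member of a large family of similar histocompatibility genes, had 14 birds between 5.91 and 8.86 and 5 between 3.47 and 4.91. *MIR1789* had 8 birds at 6.74 or more and 11 at 5.73 or less. Which family members the *B-G* probes read, and whether sequence differences under the probes add to these ranges, was not tested.

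The jejunal arrays carry the same bird numbers, and the paper took both tissues from the same birds. The labels leave some doubt whether a number means the same bird in both tissues, so their values are only set beside these without a test. For *C20orf173* the arrays numbered 1, 7, 13 and 14 had 5.24, 5.36, 5.32 and 5.19 in the cecum and 4.81, 5.83, 5.18 and 9.54 in the jejunum. For *BF2* number 6 had 11.63 in the cecum and 12.19 in the jejunum and number 18 had 7.10 and 7.58 in the same order, whereas for *B-G* number 9 had 8.77 in the cecum and 4.32 in the jejunum, number 14 had 6.26 and 3.70, and number 3 had 6.13 and 3.73. Other numbers were alike for *B-G*, such as 16 with 8.86 in the cecum and 9.37 in the jejunum and 8 with 3.47 and 3.67. For *MIR1789* number 16 had 7.77 in the cecum and 8.21 in the jejunum, and number 6 had 4.63 and 5.06. Number 10 had 5.73 and 6.61 for *MIR1789*, and numbers 1 (6.95 and 8.10) and 12 (4.65 and 5.67) differed more. The numbers at 6.74 or more in the cecum had 6.03 or more in the jejunum, and all others but number 10 had 5.67 or less. For *BF2* all 9 numbers at 10.62 or more in the cecum had 11.42 or more in the jejunum, and the 10 at 9.66 or less had 9.83 or less. For *C20orf173* numbers 1, 7 and 13 were low in both tissues, and all others, 14 among them, had 7.90 or more in the jejunum. Values by number were thus mostly alike in both tissues for *BF2*, *C20orf173* and *MIR1789*, and mixed for *B-G*.

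Single immune and blood genes varied widely too. *GZMA*, a protease of cytotoxic lymphocytes, had 5.14 in bird 1, a median of 7.56 and 9.39 in bird 12. *AVD*, which encodes the biotin-binding protein avidin, stood at 10.52 in bird 2 and 10.07 in bird 9, with all others at 9.38 or less. *HBA1*, a haemoglobin chain, ran from 4.45 in bird 1 to 8.47 in bird 2, and *HBAD*, another such chain, had an SD of 0.88. The haemoglobin signals thus differed widely between birds, and their part in other differences was not tested.

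Grouped without any list, the most variable genes formed 3 groups. Of the named protein-coding genes, 61 had a mean of at least 5 and an SD of at least 0.75, and average linkage on their correlations, cut at a mean r of 0.6, placed 27 of them in groups of 5 or more. As these correlations made the groups, they are a description and carry no test. Without bird 3, 54 genes entered and 2 groups of 23 genes in all were found.

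**Figure D2:**
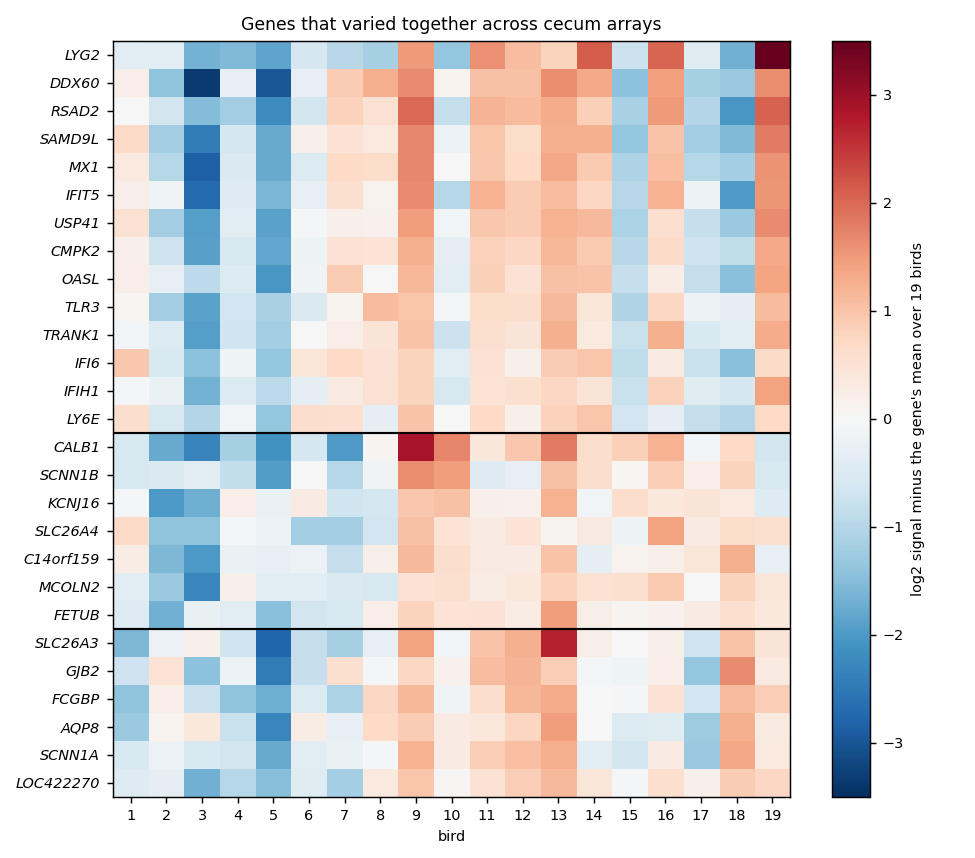
Log2 signal minus the gene's mean over 19 birds (colour) for the 27 genes of the 3 groups (rows, groups parted by lines) in birds 1 to 19 (columns). In the top group birds 3 and 5 are low and birds 9 and 19 high, and in the bottom group bird 5 is low and bird 13 high.

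The largest group held 14 genes, and 11 of them are in the list of interferon response genes. They were *DDX60*, *RSAD2*, *SAMD9L*, *MX1*, *IFIT5*, *CMPK2*, *OASL*, *TLR3*, *IFI6*, *IFIH1* and *LY6E*, joined by *USP41*, *TRANK1* and *LYG2*. Interferons, released by cells that sense viral or microbial nucleic acids, switch on such genes in those and other cells. *MX1*, *RSAD2* and *OASL* encode antiviral proteins. The median r within the group was 0.91. The mean level of the 14 genes was highest in birds 19 (9.67) and 9 (9.44) and lowest in birds 3 (6.18), 5 (6.41) and 18 (6.89). *RSAD2*, for example, had 4.61 in bird 5, a median of 6.83 and 8.89 in bird 19, and *DDX60* had 5.43 in bird 3, a median of 9.00 and 10.42 in bird 9. *LYG2*, a lysozyme of the goose type listed under heterophils, had 10.28 in bird 19 and 8.77 or less in all others. *BF2*, the class I chain, did not join the group, and *B2M*, its partner, had an SD of 0.16 and did not enter. Without bird 3, 13 genes made up this group, with *B3GNT7* in. *IFIH1* and *LY6E* then did not reach the SD of 0.75 and did not enter, so their absence says nothing on whether they still varied with the group.

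The second group held 7 genes of ion transport and ion handling for the most part. *CALB1* encodes the calcium-binding protein calbindin, *SCNN1B* a subunit of the epithelial sodium channel, *KCNJ16* a potassium channel, *SLC26A4* an anion exchanger and *MCOLN2* a channel of endosomes. *C14orf159* and *FETUB* completed it. *CALB1* had 4.70 in bird 3, a median of 7.09 and 9.90 in bird 9. *KCNJ16* had 4.11 in bird 2 and 7.32 in bird 13, and *MCOLN2* had 3.19 in bird 3 and 6.39 in bird 16. The mean level of the 7 genes was 4.68 in bird 3 and 4.69 in bird 2, against 5.19 or more in all others, and it was highest in birds 9 (7.43) and 13 (7.21). The median r was 0.72. Without bird 3, *KCNJ16*, *C14orf159* and *MCOLN2* did not reach the SD of 0.75 and did not enter, so this group could not form again as it was. *SLC26A4* still reached that SD but stood in neither group then. *CALB1*, *SCNN1B* and *FETUB* then stood with the surface genes of the third group. After quantile normalization with all birds *CALB1*, *SCNN1B* and *FETUB* stood there too. *KCNJ16*, *C14orf159*, *MCOLN2* and *SLC26A4* then formed a group of their own with *CFTR* and *ABCB5*.

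The third group held 6 genes, of which *SLC26A3*, *GJB2*, *AQP8* and *SCNN1A* are in the surface list and *FCGBP* in the goblet list. *SLC26A3* is the exchanger of chloride for bicarbonate at the colonic surface, *AQP8* a water channel, *GJB2* a gap junction protein, *SCNN1A* another subunit of the sodium channel and *FCGBP* a large protein of mucus. The unnamed locus *LOC422270* was the sixth. Bird 5 was the lowest in 5 of the 6 genes, and bird 13 the highest in 4 and bird 18 in the other 2. *SLC26A3* had 4.27 in bird 5, a median of 7.05 and 9.75 in bird 13, and *GJB2* had 5.86 in bird 5, a median of 8.46 and 9.95 in bird 18. The median r within this group was 0.83.

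To ask which genes vary with a given cell type or process, 1 gene was taken as its anchor, and every other probe set was regressed on it with limma over the 19 birds. A slope is the change in log2 signal per SD of the anchor, and a probe set was called at an adjusted p (Benjamini-Hochberg over all probe sets) under 0.05. The anchors were *AQP8* for the surface, *MUC2* for goblet cells, *TOP2A* for dividing cells, *CD3E* for T cells, *POU2AF1* for B cells, *MARCO* for macrophages, *IFIT5* for the interferon response, *ACTG2* for smooth muscle and *COL1A2* for fibroblasts. The gene lists describe the outcome and were not tested themselves.

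**Figure D3:**
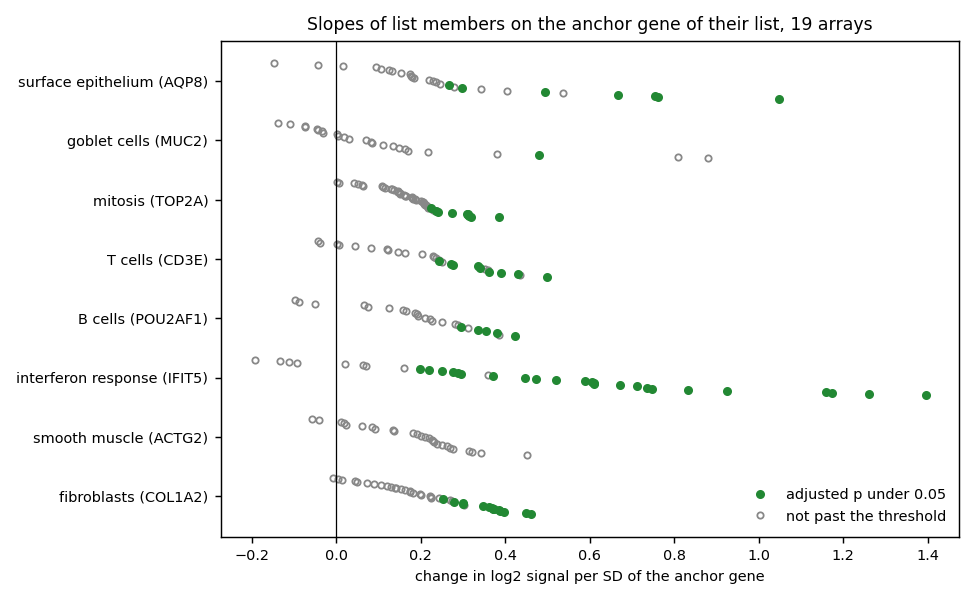
Slope on the anchor gene (horizontal axis, change in log2 signal per SD of the anchor over 19 birds) of each measured member of the anchor's own list, with the anchor in brackets. Filled green dots are members with an adjusted p under 0.05, and open dots are the others. In the interferon list 24 of 33 members are filled, and in the smooth muscle list none is.

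With *AQP8*, 7 of 27 other genes of the surface list rose. The anchor itself had 7.78 in bird 5, a median of 10.34 and 11.52 in bird 13. Of 18307 probe sets, 46 were called (0.251%), of which 41 rose (0.224%) and 5 fell (0.0273%) with it. Without bird 3 these were 333 (1.82%), 257 (1.4%) and 76 (0.415%). Of the surface list 0 fell, and it had a median slope of 0.23, against -0.0036 over all probe sets, and 11 rose without bird 3. Other lists also leaned one way without calls: slopes were above 0 in 29 of 30 absorptive enterocyte genes (median 0.26) and 27 of 34 interferon genes (median 0.17), and below 0 in 47 of 49 mitosis genes (median -0.13), 25 of 28 smooth muscle genes and 19 of 21 endothelial genes. *SLC26A3* rose by 1.05 ± 0.13 per SD (SE, adjusted p = 0.000541) and *SCNN1A* by 0.76 ± 0.10 (adjusted p = 0.000541). *FCGBP* (slope 0.81) and *TMEM37* (0.48) followed at an adjusted p of 0.00204. Among the other genes with the firmest rise were *SLC16A5*, a monocarboxylate transporter (0.47), the keratin *KRT40* (0.38), *HEPH*, the ferroxidase of iron export (0.32), and the phosphate transporter *SLC20A1* (0.38). *MAL*, which sorts cargo to the apical membrane, *CDHR2*, which links microvilli, and *TMIGD1* rose with slopes of 0.49, 0.30 and 0.67. *CBS* (0.27) and *PAPSS2* (0.35), which makes the active sulfate donor, rose as the called ones of 20 genes of sulfide and sulfate handling. *DEK*, a chromatin protein, fell by 0.18 and *FAM92A* by 0.35. Of the 16 genes chosen by the naming rule, 11 lost their call without bird 5 and 9 without bird 13, the birds at the ends of the *AQP8* range, and 4 kept it whichever bird was left out. The called probe sets were 6 without bird 5, 7 without bird 13, and 27, 28 and 24 without birds 9, 17 and 18.

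Few probe sets varied with *MUC2*, the main gel-forming mucin of the gut. Of 7 called probe sets (0.0382%) 5 rose (0.0273%) and 2 fell (0.0109%) with it, and without bird 3 3 rose (0.0164%) and 0 fell. *MUC5B*, a second gel-forming mucin, rose by 0.48 ± 0.07 (adjusted p = 0.00785) and was the 1 called gene of 25 in the goblet list. It had 8.33 in bird 3, a median of 9.35 and 10.37 in bird 14, and bird 14 was also the highest for *MUC2*. Its adjusted p was 0.0417 without bird 3, and without bird 14 no probe set chosen by the naming rule was called with *MUC2* and only 1 was in all. With *AGR2* as the anchor (r = 0.34 with *MUC2*) all 3 named genes lost their call. *LOC419171* rose (0.36) and *VGLL1*, a partner of transcription factors, fell by 0.32, and neither was called without bird 3. *CLCA1* and *GAL3ST2* had slopes of 0.81 ± 0.46 and 0.88 ± 0.33 on *MUC2* and were not called (adjusted p = 0.373 and 0.289), so their wide spread did not follow this mucin closely enough to pass.

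Of 48 genes of mitosis 10 rose with *TOP2A*, the topoisomerase that untangles chromosomes in dividing cells. *TOP2A* had 7.84 in bird 12, a median of 8.35 and 9.03 in bird 5. In all, 90 probe sets were called (0.492%), of which 71 rose (0.388%) and 19 fell (0.104%). Without bird 3 589 were called (3.22%), of which 363 rose (1.98%) and 226 fell (1.23%). No mitosis gene fell, and the list had a median slope of 0.19, against -0.0021 over all probe sets, and 28 rose without bird 3. *MKI67*, the proliferation marker Ki-67, rose by 0.32 ± 0.04 (adjusted p = 0.00121), and the mitotic motor *KIF4B* by 0.35 ± 0.04 (adjusted p = 0.00101). *PLK1*, a kinase of mitosis, rose by 0.38, *BUB1* of the spindle checkpoint by 0.31, and *TPX2*, which builds the spindle, by 0.24. In DNA replication 4 of 38 genes rose (13 without bird 3), among them *FEN1*, a nuclease of lagging strands (0.32). *AXIN2*, a target of Wnt signals in crypts, rose by 0.32.

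The surface genes called with *TOP2A* all fell. Of all probe sets 0.104% fell with it, and 1.23% without bird 3. *SLC26A3* fell by 0.94 ± 0.17 (adjusted p = 0.00917) and *AQP8* by 0.66, which made 2 of 28 surface genes, and 6 fell without bird 3. Slopes were below 0 in 29 of 30 absorptive enterocyte genes (median -0.27), of which 0 were called with all birds and 5 without bird 3. They were above 0 in 37 of 41 fibroblast genes (median 0.14) and 25 of 28 smooth muscle genes (median 0.12), none of them called with all birds, and the part of the stroma in the mitosis result was not tested. *DHRS11*, a steroid reductase, fell by 0.46, *GLRX*, a glutaredoxin, by 0.42, and *GZMK*, a granzyme of lymphocytes, by 0.47. Bird 5, which was highest in *TOP2A* and *MKI67* (9.73), was lowest in *SLC26A3*, *GJB2* and *AQP8*, and bird 12 was lowest in both proliferation genes. Without bird 5, 13 of the 18 named genes lost their call and without bird 12 15 did, and the total of called probe sets was then 5 and 3, against 90 with all birds. Leaving out bird 1, 4, 7 or 13 gave 59, 55, 56 and 30, and leaving out bird 6 gave 203.

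With *CD3E*, a chain of the T cell receptor complex, 9 of 28 T cell genes rose. *CD3E* ran from 7.13 in bird 7 over 7.98 to 8.52 in bird 6. In all, 202 probe sets were called (1.1%), of which 179 rose (0.978%) and 23 fell (0.126%). Without bird 3 61 were called (0.333%), of which 59 rose (0.322%) and 2 fell (0.0109%). Besides the 9 T cell genes, 5 of 25 B cell genes and 6 of 25 macrophage genes rose, and none of these lists had a gene that fell. Without bird 3 these were 6, 3 and 5. *ITGA4*, an integrin of leukocyte homing, rose by 0.51 ± 0.06 (adjusted p = 0.000182) and had 5.27 in bird 3, a median of 7.07 and 7.54 in bird 10. *TRAT1*, an adaptor of the receptor complex, rose by 0.50, *PTPRC*, the leukocyte antigen CD45, by 0.46, the transcription factor *NFATC1* by 0.42 and the acid-sensing receptor *GPR65* by 0.53. *CD247*, the zeta chain of the receptor, rose by 0.28, and *ZAP70*, the kinase it recruits, by 0.34, but *ZAP70* was not called without bird 3 (adjusted p = 0.0631). The 6 named genes that fell, such as *LAD1* of the basement membrane zone and the growth factor receptor *FGFR4*, all lost their call without bird 3. The called probe sets were 316 without bird 6, 117 without bird 10 and 713 without bird 13. *LCK*, another kinase of T cells, correlated with *CD3E* by only 0.15 (0.53 without bird 3), and with *LCK* as the anchor all 21 named genes lost their call, 9 of them with the slope turned.

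With *POU2AF1*, a coactivator of B lineage cells, 5 of 24 genes of the B cell list rose. *POU2AF1* had 4.42 in bird 7, a median of 5.70 and 6.45 in bird 10. Of 53 called probe sets (0.29%) 52 rose (0.284%) and 1 fell (0.00546%) with it, and without bird 3 47 rose (0.257%) and 0 fell. *JCHAIN* rose by 0.38 ± 0.05 (adjusted p = 0.000194), *FAM46C*, a poly(A) polymerase active in plasma cells, by 0.54 ± 0.06, *IRF4*, a factor of plasma cell development, by 0.36, and *DERL3*, which clears misfolded proteins from the endoplasmic reticulum, by 0.42. The kinases *BTK* (0.30) and *SYK* (0.34) of the B cell receptor rose as well. The 5 of the B cell list, *JCHAIN*, *IRF4*, *DERL3*, *BTK* and *SYK*, were called with and without bird 3. *LYZ*, a lysozyme, rose by 0.36. Without bird 7 or bird 10, the birds at the ends, the called probe sets were 25 each, and without bird 15 they were 34. With *CD79B* as the anchor (r = 0.65 with *POU2AF1*), 10 of the 11 named genes lost their call.

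No probe set was called with *MARCO*, a scavenger receptor of macrophages that had 6.20 in bird 1, a median of 7.38 and 8.43 in bird 2. The count was 0 (0.0%) with all birds and without bird 3, and 1478 probe sets had an unadjusted p under 0.05. In limma with robust moderation and a trend it was also 0.

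Interferon response genes rose with *IFIT5*, which encodes an antiviral RNA-binding protein. *IFIT5* had 5.84 in bird 3, a median of 8.66 and 10.18 in bird 9. With all birds 1971 probe sets were called (10.8%), of which 959 rose (5.24%) and 1012 fell (5.53%). Without bird 3 75 were called (0.41%), of which 74 rose (0.404%) and 1 fell (0.00546%), and 67 of the 75 had been called with bird 3, all in the same direction. The count was 3130 without bird 5 and 3715 without bird 18, and 916, 1112, 1173 and 1293 without birds 11, 12, 13 and 15. In the list of interferon genes 24 of 33 rose and 0 fell, with a median slope of 0.45, against -0.02 over all probe sets, and 22 rose without bird 3. *EPSTI1* rose by 0.67 ± 0.05 (adjusted p = 3.05e-08), and *RSAD2*, also called viperin, by 1.26 ± 0.11 (adjusted p = 1.19e-07). *MX1* rose by 1.16 ± 0.10, *SAMD9L* by 1.17, *CMPK2* by 0.93, the RNA sensor *IFIH1* by 0.71 and *HELZ2* by 0.61. *DDX60* (1.40), *OASL* (0.83), *EIF2AK2*, the kinase that halts translation on viral RNA (0.61), and *IFI6* (0.74) were called too. Not called were *BF2* (0.36), *B2M* (0.07), *TAP1* (-0.13) and *TAP2* (0.02), which belong to antigen presentation, nor *C1S*, *CCL19*, *CD274*, *UBA7* and *XAF1*. The 7 surface genes that rose with *IFIT5*, among them *CA4* (0.33), a carbonic anhydrase of the apical membrane, were none of them called without bird 3, and neither were the 6 named genes that fell, such as the cell cycle inhibitor *CDKN2C*.

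Smooth muscle gave 1 call. *ACTG2*, the actin of visceral muscle, had 8.95 in bird 8, a median of 9.88 and 11.23 in bird 9. *FNDC1*, a fibronectin-type protein, rose by 0.55 ± 0.09 (adjusted p = 0.0266) and was the only probe set called (0.00546%), and leaving out any of 9 birds ended that call. Without bird 9 there were 14 calls. Without bird 3 94 were called (0.513%), of which 58 rose (0.317%) and 36 fell (0.197%), among them *KCNMB1* of a potassium channel (0.37), *TAGLN*, an actin-binding protein (0.34), and *CSRP1* (0.24), which made 3 of 27 muscle genes that rose. With all birds their adjusted p did not pass, and 25 of the 27 had a slope above 0 without bird 3.

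With *COL1A2*, a chain of type I collagen, 14 of 40 fibroblast genes and 4 of 21 endothelial genes rose, and 6 of 30 absorptive enterocyte genes and 11 of 34 interferon genes fell. *COL1A2* had 7.88 in bird 16, a median of 8.65 and 9.54 in bird 6. Of 18306 probe sets 1066 were called (5.82%), of which 511 rose (2.79%) and 555 fell (3.03%). Without bird 3 1441 were called (7.87%), of which 768 rose (4.2%) and 673 fell (3.68%). Of 40 fibroblast genes 14 rose and 0 fell, with a median slope of 0.22, against 0.01 over all probe sets, and 23 rose without bird 3. *COL6A2* rose by 0.45 ± 0.05 (adjusted p = 1.68e-05) and had 8.52 in bird 16, a median of 9.25 and 10.18 in bird 6. *LOXL2*, which crosslinks collagen, rose by 0.44 ± 0.05 (adjusted p = 3.22e-05), *COL5A1* by 0.39 and *SERPINH1*, the chaperone of collagen, by 0.44. *TIE1*, a receptor of endothelium (0.39), and *PODXL*, a glycoprotein of vessels (0.48), rose with them. Of 28 smooth muscle genes 3 rose, 10 without bird 3. Of 49 mitosis genes 6 rose, 10 without bird 3.

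The epithelial lists did not move one way with *COL1A2*. Of all probe sets 2.79% rose and 3.03% fell with it, and 4.2% and 3.68% without bird 3. Of 28 surface genes 3 fell and 0 rose, of 26 goblet genes 3 fell and 0 rose, and of 22 crypt base genes 4 rose and 0 fell (8 rose without bird 3). *PLS1*, which bundles actin in microvilli, fell by 0.52 ± 0.08 (adjusted p = 0.000884), and *CHMP2B*, *ARL14*, *SLC22A4*, a carnitine and ergothioneine transporter, and *DAPK2* fell as well. Among absorptive enterocyte genes 6 of 30 fell and 0 rose, with *FABP2* at -0.82 and *RBP2* at -0.81, and the same number fell without bird 3. Of 34 interferon genes 11 fell (8 without bird 3), such as *RSAD2* (-0.84) and *TLR3* (-0.64), a receptor of double-stranded RNA. Birds 3 and 5, with the lowest mean levels of the interferon group (6.18 and 6.41), were high in *COL1A2* (9.19 and 9.35). Bird 18, with the next lowest level (6.89), had 8.48 for *COL1A2*, under the median of 8.65. With *LUM*, another fibroblast gene, as the anchor all 19 named genes lost their call, 2 of them with the slope turned, and *LUM* correlated with *COL1A2* by only 0.23 (0.64 without bird 3). The 19 kept their call whichever bird was left out, while the count of all called probe sets was 404 without bird 16, 514 without bird 12, 609 without bird 19, 672 without bird 6 and 681 without bird 8, against 1066 with all birds.

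Between the anchors themselves 36 pairs were compared over the 19 birds. Only *AQP8* and *TOP2A* passed, with r = -0.71 (permutation p = 0.00075, adjusted over the 36 pairs 0.027) and rho = -0.58 (p = 0.0105, adjusted 0.0945). Without the 2 birds farthest from the median of *AQP8* r was -0.44 (p = 0.0799), and without bird 3 it was -0.70. Leaving out birds for their extreme *AQP8* narrows its range and can lower r by itself. The fall to -0.44 therefore cannot show whether the relation rests on those birds. Next came *TOP2A* with *COL1A2* (r = 0.63, rho = 0.67, adjusted p = 0.063 and 0.0439; r = 0.66 without bird 3, where its adjusted p was 0.0391) and *CD3E* with *POU2AF1* (r = 0.61, rho = 0.70, adjusted p = 0.0714 and 0.0439; r = 0.57 without bird 3, adjusted p = 0.162). *IFIT5* with *COL1A2* had r = -0.58 and rho = -0.61 (adjusted p = 0.0764 and 0.0821), and r = -0.70 without the 2 birds farthest from the median of *IFIT5*. *MUC2* with *IFIT5* had r = 0.57 and rho = 0.52 (adjusted p = 0.0764 and 0.174), and the other 31 pairs had an unadjusted p of at least 0.05.

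**Figure D4:**
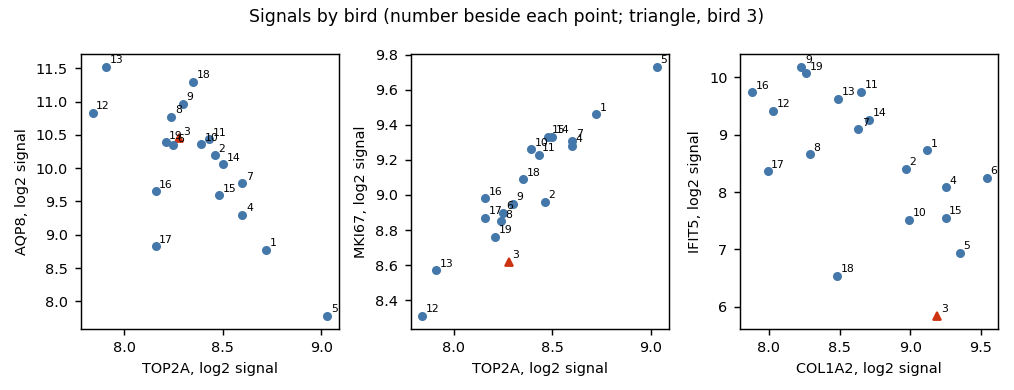
Log2 signals of *AQP8* against *TOP2A* (left), *MKI67* against *TOP2A* (middle) and *IFIT5* against *COL1A2* (right), 1 point per bird with its number, bird 3 as a triangle. Bird 5 has the highest *TOP2A* (9.03), the lowest *AQP8* (7.78) and the highest *MKI67* (9.73).

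Genes of small-intestinal absorption were low in most ceca and on average highest in bird 12. Of 30 measured genes of absorptive enterocytes 10 had a mean of at least 5, and the mean level of the list was 6.29 in bird 12, against a median of 4.89 and a lowest value of 4.53 in bird 5. Bird 12 was the highest bird in 16 of the 30, and birds 2, 3 and 13 were the highest in 3 each. Over all probe sets, no bird but bird 3 lay outside the range of the others, above or below, in more than 14.3%. The array of bird 3 was higher by a median of 0.56 in probe sets with a mean under 4, and the bearing of this on its 3 genes was not tested. *SLC13A1*, for example, had 5.59 in bird 2 and 4.54 in bird 12, and *FABP2* had 8.52 in bird 12 and 8.38 in bird 13. *RBP2*, which carries retinol in enterocytes, had 8.10 in bird 12, a median of 4.22 and 2.77 in bird 1. *APOB*, the protein of chylomicrons, had 6.06 in bird 12 and a median of 2.98, and *SI*, the sucrase-isomaltase of the brush border, had 7.59 in bird 12 and 6.39 or less in all others. Birds 8 and 11 came next for *RBP2* (6.47 and 6.46) and *APOB* (5.10 and 5.07). *FABP6*, the ileal bile acid-binding protein, had 6.86 in bird 12 and 5.73 or less in the other birds. *ANPEP*, an aminopeptidase with a mean of 8.96, and *APOA1* (7.90) did not single out bird 12. Where along the gut each scrape was taken was not tested.

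**Figure D5:**
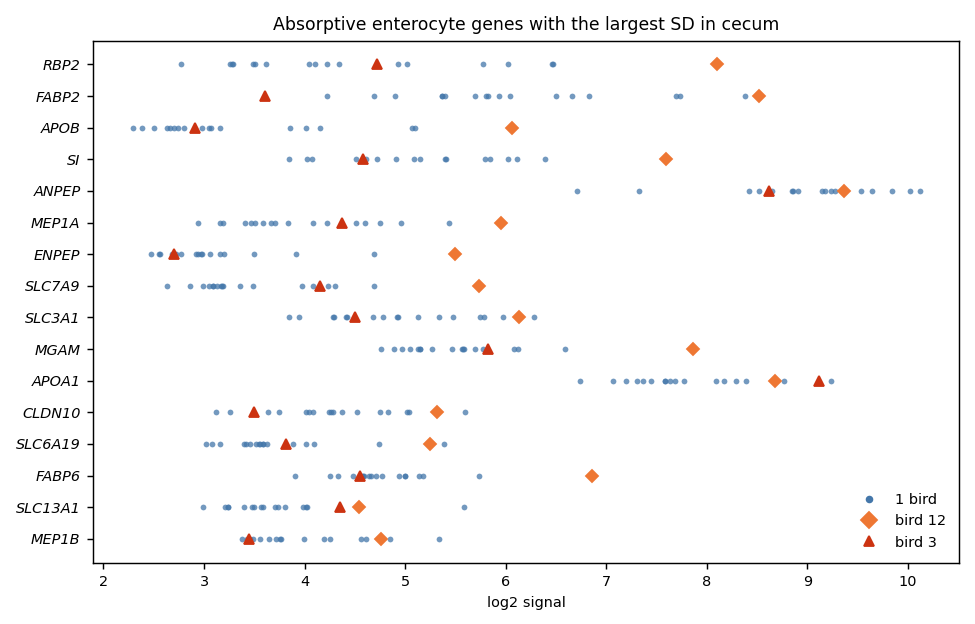
Log2 signal (horizontal axis) of each of 19 birds for the 16 absorptive enterocyte genes with the largest SD, with bird 12 as a diamond and bird 3 as a triangle. Bird 12 is the highest for *RBP2* (8.10), *APOB* (6.06), *SI* (7.59) and *FABP6* (6.86), but not for *ANPEP* or *APOA1*.

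Among the remaining lists, 3 of 20 genes of cholesterol synthesis had an SD of at least 0.75, namely *CYP51A1*, *MSMO1* and *FDFT1*. Of the 7638 protein-coding symbols with a mean of at least 5, 61 had such an SD. The median SD of the 20 genes was 0.38. *CYP51A1* had 5.73 in bird 4, a median of 7.45 and 8.90 in bird 13. In the list for inflammation bird 2 had the highest mean level (5.71, median of the birds 5.22), with *IL8L1*, a chemokine of heterophils, at 7.57 and *AVD* at 10.52, while *NOS2*, the inducible nitric oxide synthase, was lowest in that bird (5.81). Ribosomal protein genes had a median SD of 0.21 and respiratory chain genes one of 0.23, both under the 0.30 of all probe sets with a mean of at least 5. Their medians of mean signal were 10.19 and 8.62. At like levels the margin was smaller, with a median SD of 0.25 over probe sets of 10 and over and 0.29 over those of 8 to 9. *RPL32* was the exception among 46 ribosomal genes, with 8.98 in bird 13, a median of 10.13 and 11.64 in bird 3. *PER2* of the circadian clock ran from 5.67 in bird 3 over 7.69 to 8.76 in bird 16. Of the early response genes *CYR61* was highest in bird 14 (9.05, median 7.00), and of the heat shock genes *HSPB9* was highest in bird 2 (8.26, median 6.26).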

How the data were processed

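The authors deposited normalized log2 signals, rounded to 2 decimals, for 18308 probe sets on 38 arrays, analysed with the Transcriptome Analysis Console. How signals were background-corrected, normalized and summarized is not given in the sources used here. All 19 cecum arrays entered as deposited. For arrays no read depth exists, and their number limits the precision. Nothing but the labels' separate birds makes the samples replicates. Gene names came from the array platform's annotation, with gene IDs looked up in the RefSeq table (11727 of 12300 found), and of several probe sets for 1 gene that of the highest mean stood for it. Several symbols were joined to 256 probe sets and none to 5752.

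Slopes were fitted with limma 3.58.1 in R 4.3.3 (lmFit, eBayes, Benjamini-Hochberg). Each anchor was the first candidate of its list with a mean of at least 5. The 9 anchors, 29 gene lists and the members were chosen with earlier results of these data known, and the lists were written from textbook knowledge. Pairs of anchors used 100000 permutations, two-sided. Genes were named by rule: anchors, the 30 highest means, the 30 largest SDs, per anchor the 10 largest positive and 6 largest negative moderated t among called genes with up to 6 called list members, up to 4 members of each other list by SD, leading genes of the groups, and 6 microRNAs; *EIF2AK2*, *TAP1*, *TAP2*, *C1S*, *CCL19*, *CD274*, *UBA7*, *XAF1*, *PAPSS2*, *CSRP1*, *TAGLN*, *HBAD* and the gastric and intestinal markers were added after their values were seen. Tested on simulated data of the same 18308 probe sets for the anchor fits, 46% of slopes of 0.25, 94% of 0.5, 98% of 0.75 and 100% of 1 were recovered, with 9 false calls. The simulated probe sets varied independently of each other, without shared variation and without an array like that of bird 3. These figures therefore check the procedure and give no error rate for the real fits. A planned search of promoter motifs was not run. Other tools were numpy 2.4.6, pandas 2.3.3, scipy 1.17.1 and matplotlib 3.10.9.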

Additional observations from a re-analysis of the deposited data

How the results depend on the processing

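No paired analysis was possible because only cecum arrays entered and no 2 groups were compared. The choice of anchor and bird 3 both move these results. Without bird 3 (a setting chosen after seeing the data for the spread, the groups and the pairs) the called probe sets were 333 with *AQP8*, 589 with *TOP2A*, 61 with *CD3E*, 75 with *IFIT5*, 94 with *ACTG2* and 3 with *MUC2*, against 46, 90, 202, 1971, 1 and 7. The cause of such changes was not tested. Leaving out each bird in turn gave 6 to 333 called probe sets for *AQP8*, 1 to 8 for *MUC2*, 3 to 589 for *TOP2A*, 61 to 713 for *CD3E*, 25 to 73 for *POU2AF1*, 0 to 1 for *MARCO*, 75 to 3715 for *IFIT5*, 0 to 94 for *ACTG2* and 404 to 1441 for *COL1A2*. Besides bird 3, the counts moved by over 1.5 times without birds 5, 9, 13, 17 or 18 (*AQP8*), 1, 11, 12, 14 or 15 (*MUC2*), 1, 4, 5, 6, 7, 12 or 13 (*TOP2A*), 6, 10 or 13 (*CD3E*), 7, 10 or 15 (*POU2AF1*), 4, 13 or 14 (*MARCO*), 5, 11, 12, 13, 15 or 18 (*IFIT5*), 1, 5, 6, 8, 9, 12, 14, 16, 17 or 19 (*ACTG2*) and 6, 8, 12, 16 or 19 (*COL1A2*). Of the 105 named relations of a gene with an anchor, 57 kept their call in every such fit and none changed its sign.

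Quantile normalization gave 3 called probe sets for *MUC2*, 389 for *TOP2A*, 82 for *CD3E*, 1 for *MARCO*, 0 for *ACTG2* and 2097 for *COL1A2*. With arrays centred on their median *AQP8* had 72. With probe sets of a mean under 5 left out *AQP8* had 80, *TOP2A* 219 and *ACTG2* 33. With ranks of the anchor *AQP8* had 25, *CD3E* 109, *IFIT5* 177 and *ACTG2* 380. With the interquartile range of the array as a second term the counts were 370 for *AQP8*, 2 for *MUC2*, 855 for *TOP2A*, 74 for *CD3E*, 94 for *IFIT5*, 2 for *ACTG2* and 1935 for *COL1A2*. Without birds 3 and 12 they were 172 for *AQP8*, 2 for *MUC2*, 198 for *TOP2A*, 40 for *CD3E*, 69 for *IFIT5* and 45 for *ACTG2*. Robust moderation moved no count by over 1.5 times.

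The next gene of each list as anchor gave 6395 called probe sets with *CA4* for *AQP8*, 0 with *AGR2* for *MUC2*, 698 with *PLK1* for *TOP2A*, 1443 with *LCK* for *CD3E*, 31 with *CD79B* for *POU2AF1*, 4524 with *MX1* for *IFIT5*, 524 with *MYH11* for *ACTG2* and 4142 with *LUM* for *COL1A2*, and no such fit was run for *MARCO*, whose next candidate had a mean under 5. With *LCK* in place of *CD3E* the slopes were reversed for *GPR65* (-0.10), *PTPRC* (-0.0446), *TRAF5* (-0.0128), *RHOF* (-0.0192), *UBASH3A* (-0.0325), *ZAP70* (-0.0065), *MIR138-1* (0.12), *FGFR4* (0.0233) and *LAD1* (0.15), and with *LUM* in place of *COL1A2* for *COL4A6* (-0.0129) and *PLS1* (0.0425), none of them called. Of the named genes, all 21 lost their call with *LCK*, all 19 with *LUM*, 10 of 11 with *CD79B*, all 3 with *AGR2*, 2 of 16 with *CA4* and 1 of 17 with *PLK1*, and none with *MX1* or *MYH11*. A kept call says little with *CA4* and *MX1*, as 6395 and 4524 of 18307 probe sets were called with them. Both were lowest in bird 3 (9.46 and 5.86). *LUM* correlated with *COL1A2* by 0.23 and *LCK* with *CD3E* by 0.15.

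The anchor pairs past the threshold numbered 1 in the report, 2 by Spearman's rho, 0 without the 2 farthest birds, 3 after quantile normalization, 0 after centring, 0 without birds 3 and 12, 4 with the next anchors and 2 without bird 3. The counts of probe sets with an SD of at least 1 and of genes in groups stayed within 1.5 times under every alternative run. Groups numbered 3 in the report, after quantile normalization and after centring. They numbered 2 without bird 3, without birds 3 and 12 and with a stricter cut, which lies just at that limit. The members of the groups changed as well. With the tree cut at a mean r of 0.7, 2 groups of 20 genes were left and the second group was gone. After quantile normalization the interferon group held *FABP2*, *RBM11*, *LIPI* and *TINAG* and no longer *IFIH1* and *LY6E*. With arrays centred on their median, *FABP2* and *SI* stood with the surface genes.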
